A study of Mus musculus with 11 samples.

Results

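Matricellular and elastic fibre proteins were followed through the messenger RNA of 10 genes, Postn, Fn1, Sparc, Spp1, Tnc, Thbs1, Thbs2, Fbn1, Eln and Fbln2, which were taken by symbol from a table of 15113 genes. All 10 were found and all 10 had enough counts to be tested. The cells were C2C12, a mouse line of myoblasts, muscle precursors that stop dividing and fuse into myotubes on serum withdrawal, and they are labelled as myotubes of an early stage at passages 2 to 5. The control libraries (n = 6) came from cells with a random short hairpin RNA (shRandom) and the Drp1 libraries (n = 5) from cells with a hairpin against Drp1 (shDRP1), the dynamin-related GTPase that divides mitochondria and is encoded by Dnm1l. No time point, dose or second hairpin is named in the labels. Whether each library had a culture of its own is not stated, so the p-values speak only to library-to-library spread, possibly technical.

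The extracellular matrix is built from structural fibres and from proteins that tune how cells read them. Matricellular proteins, among them periostin, the tenascins, the thrombospondins, SPARC and osteopontin, are secreted into the matrix but act mainly by binding receptors, growth factors and other matrix proteins, and they are known to rise in tissue under repair. Fibronectin forms the provisional network that integrins assemble and on which other proteins settle. Elastic fibres have an elastin core on a scaffold of fibrillin microfibrils, with fibulins at the interface. In skeletal muscle these proteins surround the fibres and the satellite cell niche, and they are made by fibroblasts as well as by the muscle cells themselves.

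RefSeq start sites were matched for 7 of the 10 genes, and 4 of them lay within 50 bases of the start of the gene in the GENCODE annotation. Those 4 promoters are shown, since for them the 2 annotations place the start alike. Postn, Tnc and Thbs2 were higher in Drp1 libraries and Spp1 was lower. Each line gives the 250 bases before the start site, 5′ to 3′ on the gene's own strand, from RefSeq on GRCm38.p6. Capitals mark every match, on either strand (a minus-strand match reads as the reverse complement), to 6 motifs searched. The core promoter motif was spelled TATAAA. The motif of TEAD factors was spelled GGAATG. The AP-1 motif was spelled TGANTCA. The SMAD motif was spelled CAGAC. The RUNX motif was spelled TGNGGT. The CArG box of serum response factor was the last. The windows are chr3:54360857-54361106 on the plus strand for Postn, chr4:64047016-64047265 on the minus strand for Tnc, chr17:14694263-14694512 on the minus strand for Thbs2 and chr5:104434861-104435110 on the plus strand for Spp1.
Postn: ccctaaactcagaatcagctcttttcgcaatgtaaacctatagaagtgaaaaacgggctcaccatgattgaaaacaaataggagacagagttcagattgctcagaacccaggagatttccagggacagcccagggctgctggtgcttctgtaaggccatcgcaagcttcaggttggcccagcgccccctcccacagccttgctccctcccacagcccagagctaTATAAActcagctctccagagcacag
Tnc: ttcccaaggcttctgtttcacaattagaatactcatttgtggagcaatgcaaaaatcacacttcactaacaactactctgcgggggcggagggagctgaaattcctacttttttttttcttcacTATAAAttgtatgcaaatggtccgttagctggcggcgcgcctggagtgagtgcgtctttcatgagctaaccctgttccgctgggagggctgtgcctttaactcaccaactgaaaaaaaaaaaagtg
Thbs2: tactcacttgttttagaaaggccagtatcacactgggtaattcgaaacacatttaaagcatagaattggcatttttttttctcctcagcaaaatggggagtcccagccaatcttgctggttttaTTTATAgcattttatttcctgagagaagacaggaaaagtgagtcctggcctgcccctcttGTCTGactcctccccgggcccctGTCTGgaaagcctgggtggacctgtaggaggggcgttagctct
Spp1: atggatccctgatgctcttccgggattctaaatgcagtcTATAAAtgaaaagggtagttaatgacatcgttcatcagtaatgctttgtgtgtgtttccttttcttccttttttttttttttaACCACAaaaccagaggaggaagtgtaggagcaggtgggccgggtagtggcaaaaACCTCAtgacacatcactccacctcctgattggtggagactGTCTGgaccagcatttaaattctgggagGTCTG

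TATAAA was present in all 4 windows and in 12.4% of 32851 RefSeq windows of the same length. In Postn it began 26 bases before the start site, whereas in Tnc and Thbs2 it lay 121 to 126 bases before it, on the minus strand of the window in Thbs2, and in Spp1 206 to 211 bases before it. CAGAC matched at 2 places in Thbs2 and at 2 in Spp1, and 42.2% of all windows held a match. TGNGGT matched at 2 places in Spp1 only, against 40.1% of all windows. None of the 4 windows held GGAATG (12.6% of all windows), TGANTCA (6.75%) or a CArG box (1.47%). No match overlapped another. These matches describe letters in a short window and are not evidence of binding.

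Counting in these libraries starts from the poly(A) tail, so each transcript is read near its end and levels are given in CPM, counts relative to a scaled library size, not divided by gene length. Total counts ran from 12277622 to 23082617 per library. Dnm1l was at 67.1 to 86.3 CPM in control and at 14.5 to 21 CPM in Drp1 libraries, which checks the labels. No other annotated gene lay over the last 1000 bases of any of the 10 genes. In each group, libraries also spread along a shared axis, with control replicate 1 and Drp1 replicate 2 at its positive end (0.485 and 0.475, in units of the first singular vector of the deviations from the group means) and control replicate 4 and Drp1 replicate 5 at its negative end (-0.466 and -0.425).

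The matricellular genes and fibronectin rose in Drp1 libraries, osteopontin was the exception, and the elastic fibre genes fell. Postn, Fn1, Sparc, Tnc, Thbs1 and Thbs2 rose (6 of 10), and Spp1, Fbn1, Eln and Fbln2 fell (4 of 10), by edgeR's quasi-likelihood test at an adjusted p of 0.05. Among all 13025 genes tested, 33.9% were called higher and 33.3% lower by the same rule. The median log2 fold change was 0.73 over the 10 genes and 0.03 over all genes tested. At least 2-fold, 4 of the 10 rose and 3 fell, against 11.2% and 13.7% of all genes. For each of the 10, every Drp1 library lay on one side of every control library, as was true of 48.9% of all genes. So wide a background means that being called does not set these genes apart, and their values are given for what they are.

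**Figure D1:**
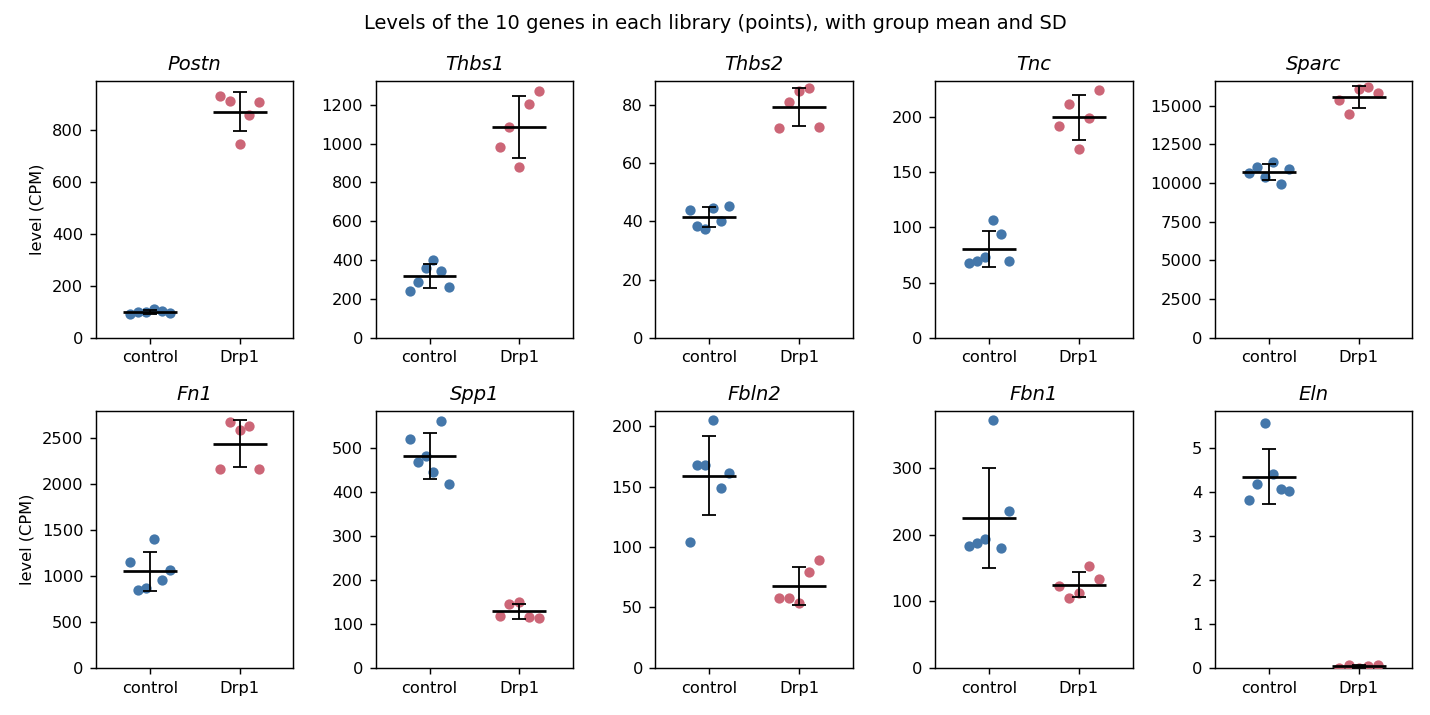
Level of each gene in CPM (vertical axes, starting at 0) in the 6 control and 5 Drp1 libraries; points are libraries, horizontal lines group means and bars the SD. Postn sits near 100 CPM in every control library and above 745 CPM in every Drp1 library, and control replicate 4 stands above the other controls for Fbn1.

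Postn had the largest rise of the 10. It encodes periostin, a secreted protein that binds integrins and collagen and is used as a marker of activated fibroblasts, and its gene (coordinates here and below are GRCm38, GENCODE M21) spans chromosome 3, 54361109 to 54391037, plus strand. Control libraries held 91.3 to 110.5 CPM with a median of 100.4, and Drp1 replicates 1 to 5 held 929.5, 913, 745.4, 857 and 907 CPM. The lowest Drp1 library was thus far above the highest control, and the spread within each group was narrow. The means were 99.98 ± 6.97 CPM (SD, n = 6) and 870.3 ± 74.9 CPM (SD, n = 5), an 8.70-fold rise with a log2 fold change of 3.12 (SE 0.07, adjusted p = 6.7e-14, edgeR). Only 200 of the 13025 genes tested had a larger log2 fold change.

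Thbs1 and Thbs2 encode thrombospondins, secreted glycoproteins that bind CD47, CD36 and integrins; thrombospondin 1 can also release TGF-beta from its latent form. Thbs1 (chromosome 2, 118111876 to 118127133, plus strand) was at 242.9 to 401.2 CPM in control libraries with a median of 315.4. Drp1 replicates 1 to 5 gave 983.9, 1086, 878, 1204 and 1271 CPM. The Drp1 libraries were all more than 2-fold above the highest control library, with replicate 5 highest and replicate 3 lowest. Means of 315.9 ± 61.5 CPM (SD, n = 6) and 1085 ± 159.5 CPM (SD, n = 5) made a 3.43-fold rise and a log2 fold change of 1.78 (SE 0.13, adjusted p = 4e-08, edgeR). Thbs2 (chromosome 17, 14665500 to 14694235, minus strand) was at 37.3 to 45.3 CPM in control libraries, median 42.0, and at 72.2, 81.0, 84.8, 85.8 and 72.6 CPM in Drp1 replicates 1 to 5. Its groups were well separated although its change was smaller. The means were 41.6 ± 3.42 CPM (SD, n = 6) and 79.3 ± 6.53 CPM (SD, n = 5), with a log2 fold change of 0.93 (SE 0.07, adjusted p = 4.2e-08, edgeR).

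Tnc encodes tenascin C, a large hexameric glycoprotein that weakens cell adhesion to fibronectin. Its position is chromosome 4, 63959785 to 64047015, minus strand. Control libraries ranged from 67.5 to 106.5 CPM with a median of 71.3, and Drp1 replicates 1 to 5 gave 192.2, 211.7, 170.6, 199.3 and 224.5 CPM. Control replicates 4 and 5 stood above the other controls but below every Drp1 library. The means were 79.9 ± 16.3 CPM (SD, n = 6) and 199.6 ± 20.4 CPM (SD, n = 5), with a log2 fold change of 1.32 (SE 0.12, adjusted p = 3e-07, edgeR).

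Sparc was the most heavily counted of the 10 genes and had the smallest rise. It encodes SPARC (osteonectin), a calcium- and collagen-binding protein, at chromosome 11, 55394500 to 55423183, minus strand. Levels ran from 9925 to 11368 CPM in control libraries with a median of 10796, and Drp1 replicates 1 to 5 gave 15338, 14429, 16040, 16185 and 15808 CPM. The groups were separated by a gap larger than the range within either of them. Sparc rose 1.45-fold, with means of 10724 ± 511.2 CPM (SD, n = 6) and 15559.9 ± 709.0 CPM (SD, n = 5) and a log2 fold change of 0.54 (SE 0.06, adjusted p = 1.2e-06, edgeR).

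Fn1 encodes fibronectin, which binds integrin alpha 5 beta 1 through its RGD sequence, at chromosome 1, 71585520 to 71653200, minus strand. Control libraries ranged from 842.3 to 1399 CPM with a median of 1009. Drp1 replicates 1 to 5 gave 2156, 2669, 2580.0, 2623 and 2157 CPM. Drp1 replicates 1 and 5 were lower than the other 3 but above every control library. Fn1 rose 2.33-fold. Means of 1047 ± 208.5 CPM (SD, n = 6) and 2437 ± 258.0 CPM (SD, n = 5) gave a log2 fold change of 1.22 (SE 0.12, adjusted p = 7e-07, edgeR).

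Spp1 was the matricellular gene that fell. It encodes osteopontin, a phosphorylated RGD protein made by bone cells, macrophages and differentiating myoblasts, at chromosome 5, 104435118 to 104441050, plus strand. Control libraries ranged from 418.1 to 561.8 CPM with a median of 475.4, and Drp1 replicates 1 to 5 gave 119.2, 144.5, 149.7, 116.2 and 114.3 CPM. Every Drp1 library was below a level of 150 CPM that every control library exceeded by more than 2-fold. The means were 482.7 ± 52.0 CPM (SD, n = 6) and 128.8 ± 16.9 CPM (SD, n = 5), a 3.75-fold decrease with a log2 fold change of -1.91 (SE 0.10, adjusted p = 3e-10, edgeR).

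Fbln2 encodes fibulin 2, which links fibronectin, fibrillin and basement membrane proteins, at chromosome 6, 91212455 to 91272540, plus strand. Control libraries ranged from 103.9 to 204.7 CPM with a median of 164.4. Drp1 replicates 1 to 5 gave 57.5, 57.7, 54.1, 79.3 and 89.5 CPM. Control replicate 1 lay well below the other controls, close to Drp1 replicate 5. The means were 159.1 ± 32.8 CPM (SD, n = 6) and 67.6 ± 15.8 CPM (SD, n = 5), with a log2 fold change of -1.23 (SE 0.17, adjusted p = 2.5e-05, edgeR).

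Fbn1 had the highest adjusted p of the 10. It encodes fibrillin 1, the main protein of microfibrils, at chromosome 2, 125300594 to 125507993, minus strand. Control libraries ranged from 179.7 to 372.1 CPM with a median of 190.3, and Drp1 replicates 1 to 5 gave 122.4, 105.0, 113.1, 152.7 and 132.8 CPM. Control replicate 4 alone made up the top of the control range, and replicate 4 was also the highest of the Drp1 libraries. Fbn1 fell 1.80-fold. Means of 225.1 ± 74.9 CPM (SD, n = 6) and 125.2 ± 18.5 CPM (SD, n = 5) gave a log2 fold change of -0.85 (SE 0.19, adjusted p = 0.0014, edgeR). Without control replicate 4 the log2 fold change was -0.64 (adjusted p = 1e-04, edgeR).

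Eln was nearly lost. It encodes tropoelastin, the soluble precursor of the elastin core, at chromosome 5, 134702593 to 134747323, minus strand. The gene was weakly counted even in control libraries, with 60, 93, 99, 80, 63 and 78 counts in replicates 1 to 6, or 3.82 to 5.56 CPM. In Drp1 replicates 1 to 5 it had 0, 1, 0, 1 and 1 counts. The ratio of control to Drp1 was 127.7, with a 95% exact binomial interval of 43.4 to 621.4 that covers counting error only, since PCR reads carried no molecular identifiers. The direction passed the test (adjusted p = 2e-10, edgeR), but with 3 counts in the Drp1 group the size of the change is uncertain.

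**Figure D2:**
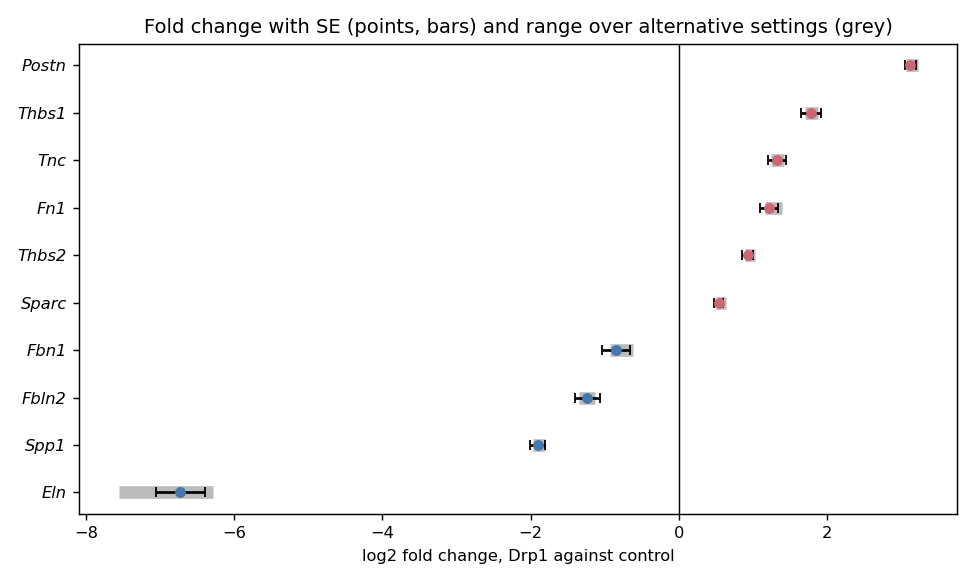
Log2 fold change of each gene, Drp1 against control (horizontal axis), as points with the SE as bars, red above 0 and blue below; grey bands span the values under the alternative settings. Values run from 3.12 for Postn to the poorly sized decrease of Eln, and no band crosses 0.

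The 10 genes also varied within groups. The coefficient of variation among control libraries was 4.77% for Sparc, 6.97% for Postn and 8.21% for Thbs2, but 19.9% for Fn1, 20.4% for Tnc, 20.6% for Fbln2 and 33.3% for Fbn1. Control replicate 4 was the highest control library for 7 of the 10 genes, Postn, Fn1, Sparc, Tnc, Thbs1, Fbn1 and Fbln2. Drp1 replicate 3 was the lowest Drp1 library for 4, Postn, Tnc, Thbs1 and Fbln2. The part of the shared axis in these differences was not tested. Leaving out both ends of the axis, control replicates 1 and 4 and Drp1 replicates 2 and 5, left 6 genes higher and 4 lower, with log2 fold changes of 3.08 for Postn, 1.39 for Fn1 and -0.62 for Fbn1.

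As a share of all counts, the 10 genes together took 1.28% ± 0.0604 (SD, n = 6) in control libraries, from 1.21% to 1.38%. In Drp1 libraries they took 2.13% ± 0.0669 (SD, n = 5), from 2.07% to 2.20%. Most of that share was Sparc. The other 9 genes took 0.208% to 0.294% in control and 0.481% to 0.555% in Drp1 libraries, so the groups did not overlap with or without Sparc.

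Related genes changed unequally within the same libraries. Ratios of counts within a library do not depend on scaling, and 4 were put to an exact permutation test (two-sided, every relabelling enumerated), whose smallest p is 0.00216. All 4 reached that value and kept it after adjustment over the 4. The pairs were chosen with earlier results of these data known. For Sparcl1 with Sparc and Tgfbi with Postn, each gene alone separated the groups, in opposite directions. Their ratios therefore had to reach the smallest p, which adds nothing to the changes of the single genes. The log2 ratio of Thbs2 to Thbs1 averaged -2.90 ± 0.34 (SD, n = 6) for control and -3.76 ± 0.27 (SD, n = 5) for Drp1, a difference of -0.86 (exact permutation p = 0.00216), so Thbs1 rose more than Thbs2. The ratio of Sparcl1, which encodes the SPARC-like protein hevin, to Sparc moved by -4.22 on the log2 scale (exact permutation p = 0.00216), in opposite directions for the pair: Sparcl1 fell from 15.3 ± 1.34 to 1.17 ± 0.22 CPM.

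Tgfbi encodes the closest relative of periostin, and it moved against Postn. Tgfbi had 149 control counts and 3 Drp1 counts, a ratio of 40.2 (95% exact binomial interval 13.5 to 197.2). The log2 ratio of Tgfbi to Postn differed by -7.76 between the groups (exact permutation p = 0.00216). Eln fell more than Fbn1, with a difference in their log2 ratio of -5.48 (exact permutation p = 0.00216). Eln was at least at 3.82 CPM in control and at most at 0.0773 CPM in Drp1 libraries. Fbn1 varied far less, from 105.0 to 372.1 CPM over all libraries. This ratio therefore also had to reach the smallest p, which adds nothing to the change of Eln alone. The differences for Tgfbi with Postn and for Eln with Fbn1 both rest on 3 Drp1 counts of the first gene and on the 0.5 added to each count.

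**Figure D3:**
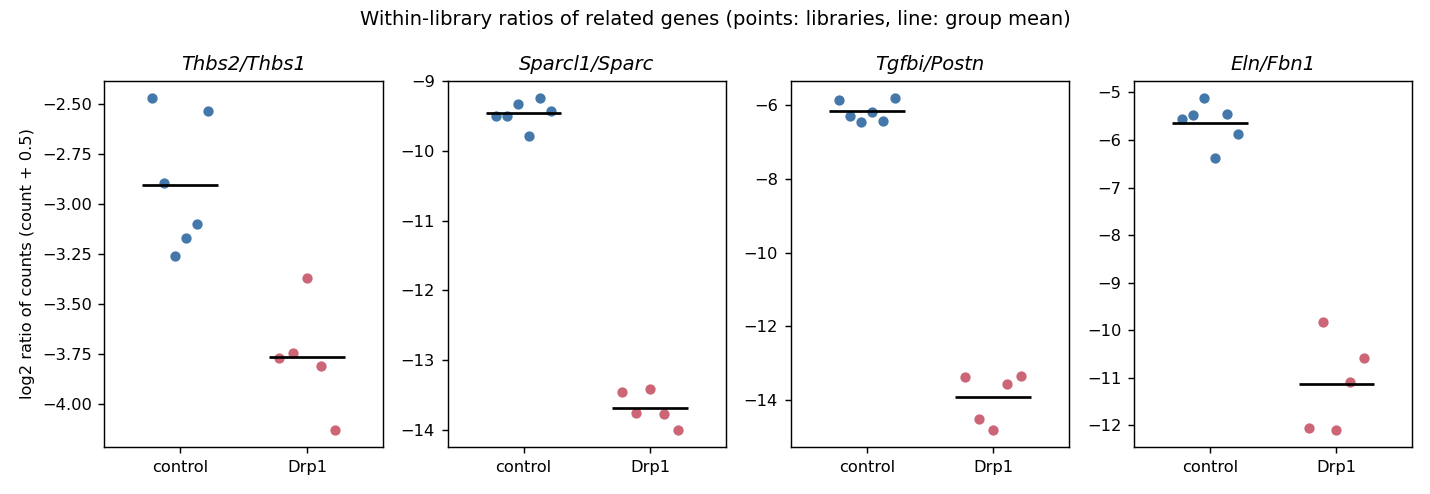
Log2 ratio of counts of each gene pair (vertical axis, 0.5 added to each count) in the 6 control and 5 Drp1 libraries; points are libraries and lines group means. Every Drp1 library lies below every control library in all 4 panels, with the smallest gap for Thbs2 over Thbs1.

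Other matricellular genes also moved in both directions. Of 25 listed, 12 were tested, 7 rose and 5 fell (median log2 fold change 0.48). Among all genes tested, 33.9% were called higher and 33.3% lower, and these shares are the background for every list count below. Among the most abundant, Fstl1, which encodes a secreted glycoprotein of the SPARC family, rose from 1633 to 2168 CPM (log2 0.41, adjusted p = 5.1e-05), and Ccn4 from 576.1 to 849.4 CPM (log2 0.56, adjusted p = 3.9e-05, both edgeR). Thbs3 rose from 3.07 to 6.55 CPM and Ccn3 from 9.15 to 25.4 CPM. The genes that fell included Ccn5, from 55.1 to 11.6 CPM, Spock2, from 26.8 to 3.17 CPM, and Smoc1, from 6.06 to 0.782 CPM. Ccn1, a target of YAP and serum response factor, rose from 6.64 to 22.3 CPM. For Ccn2 (connective tissue growth factor) the groups overlapped, and the call at a log2 fold change of 1.31 (adjusted p = 0.044, edgeR) was lost in 8 of 22 alternatives. Leaving out control replicate 2, 3, 4 or 6 or Drp1 replicate 3 gave 1.26, 1.27, 1.13, 1.16 and 1.29, and leaving out Drp1 replicate 2 gave 0.70 (adjusted p = 0.20).

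More of the other elastic fibre genes fell than rose. Of 26 listed, 23 were tested, 13 fell and 6 rose (median log2 fold change -0.45). Fbln1, which encodes another fibulin, fell, with means of 74.5 ± 6.92 CPM (SD, n = 6) and 4.74 ± 0.36 CPM (SD, n = 5), as did Mfap5, a microfibril component, going from 474.5 ± 38.4 to 91.3 ± 9.71 CPM. Ltbp2 fell from 28.3 to 1.39 CPM, Ltbp3 from 208.0 to 152.4 CPM and Fbln5 from 141.6 to 120.4 CPM. Adamtsl2, which encodes a microfibril-binding protein, had 980 control counts and 1 Drp1 count, in replicate 2, a ratio of 793.6 (95% exact binomial interval 142.1 to 31378). Those that rose included Lox, the lysyl oxidase that crosslinks elastin and collagen, from 696.3 ± 51.9 to 1778 ± 62.1 CPM, Emilin1 from 6.26 to 23.3 CPM and Adamts10 from 8.83 to 32.5 CPM. The fibulin genes tested moved both ways, since Fbln1, Fbln2 and Fbln5 fell but Fbln7, Efemp2 and Efemp1 rose. Fbln7 went from 53.3 to 124.8 CPM, Efemp2 from 33.8 to 85.2 CPM and the weakly counted Efemp1 from 0.412 to 1.03 CPM. Levels of Loxl1 were 438.0 and 418.2 CPM (adjusted p = 0.28) and of Ltbp1 102.2 and 106.1 CPM (adjusted p = 0.51, both edgeR), and the sign of the Loxl1 difference changed between scalings. Fbn2 was not analysed here.

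Cell surface receptors of these proteins moved both ways. Of 17 tested, 7 rose and 7 fell (median log2 fold change 0.06). With 33.9% of all genes called higher and 33.3% lower, moving both ways does not set the receptors apart. Integrin beta 1 (Itgb1), the common partner of fibronectin receptors, rose from 871.5 to 1018 CPM (log2 0.22, adjusted p = 0.0051, edgeR). Its alpha partners moved both ways: Itga5 rose from 16.4 to 27.8 CPM and Itgav from 34.1 to 52.3 CPM. Itga4 fell from 3.24 to 0.0804 CPM, with 7 Drp1 counts in all. Itga9, a tenascin C and osteopontin receptor chain, also fell, with 82 control counts and 1 Drp1 count, in replicate 1, a ratio of 66.4 (95% exact binomial interval 11.6 to 2654). Itgb6, which pairs with integrin alpha V and activates latent TGF-beta, fell from 7.71 to 0.0562 CPM, with 5 Drp1 counts in all. Itgb8, another partner of integrin alpha V, rose from 1.63 to 5.60 CPM. Itgb5 fell from 100.1 to 82.5 CPM and the proteoglycan Sdc2 from 511.2 to 389.1 CPM. The thrombospondin receptor Cd47 was at 147.5 and 167.2 CPM and Sdc1 at 111.5 and 84.7 CPM, and their calls (adjusted p = 0.029 and 0.023, edgeR) were lost in 9 and 4 of 22 alternatives. Among these, the log2 fold change of Cd47 was 0.14 without control replicate 1, 0.15 without control replicate 5, 0.17 without Drp1 replicate 4 and 0.15 without Drp1 replicate 5. That of Sdc1 was -0.36 without Drp1 replicate 4 and -0.31 without Drp1 replicate 5. Levels of Cd44, a receptor of osteopontin, were 205.2 and 213.4 CPM (edgeR, adjusted p = 0.74). Its sign changed without control replicate 4 (-0.02) or Drp1 replicate 2 (-0.10).

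**Figure D4:**
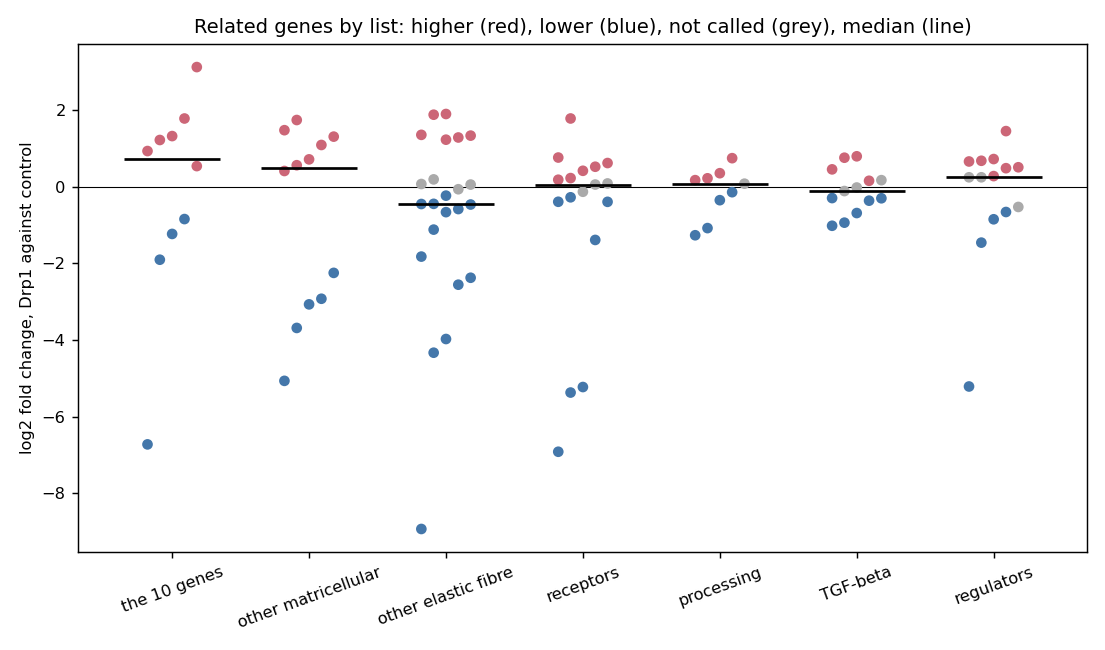
Log2 fold change, Drp1 against control (vertical axis), of the 10 genes and of 6 lists of related genes; each point is a gene, red if called higher, blue if called lower and grey if not called, and lines are list medians. The lists of other elastic fibre and TGF-beta genes have medians of -0.45 and -0.11, and the other lists have medians from 0.06 to 0.73.

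Of 9 genes that process secreted matrix proteins, 4 rose and 4 fell (median log2 fold change 0.08), 2 of them by at least 2-fold. These were Furin, a protease of the secretory pathway, which fell from 146.0 to 60.6 CPM and the crosslinking enzyme Tgm2 from 112.8 to 53.3 CPM. Mia3 rose from 194.7 to 226.5 CPM, Pofut2, which fucosylates thrombospondin repeats, from 120.5 to 153.8 CPM and Pcolce from 620.0 to 697.6 CPM, a call that was lost with the replicate number as a block (log2 0.18, adjusted p = 0.061, edgeR). Serpinh1, a collagen chaperone, was at 124.9 and 209.3 CPM, and its call (log2 0.74, adjusted p = 0.023) was lost without Drp1 replicate 2 (log2 0.44, adjusted p = 0.069, both edgeR).

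TGF-beta is a known inducer of periostin, tenascin C, fibronectin and elastin. Of 13 genes of its ligands, receptors and effectors, 4 were called higher and 6 lower (median -0.11). Tgfb1 fell from 28.8 to 14.2 CPM and Tgfb3 from 108.6 to 67.4 CPM, whereas Tgfb2 had levels of 217.2 and 213.9 CPM (edgeR, adjusted p = 0.77), with a sign that differed between scalings. Among inhibitors, Skil fell from 53.8 to 28.0 CPM and Ski from 153.5 to 124.5 CPM. Smad4 was at 59.1 and 54.6 CPM (adjusted p = 0.10, edgeR). Smad3, an effector, was at 103.8 and 115.5 CPM and was called (log2 0.15, adjusted p = 0.020, edgeR), but not without Drp1 replicate 3 (0.13) or control replicate 3 (0.14) or 5 (0.12). Without Drp1 replicate 3, 2 genes of the list were called higher.

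Of 14 transcription regulators known to act on matrix genes, 7 rose and 4 fell (median 0.26). Prrx1, a mesenchymal homeobox factor, rose from 131.0 ± 10.1 to 358.0 ± 19.8 CPM, Snai2 from 104.9 to 165.5 CPM, Srf, the serum response factor, from 141.7 to 201 CPM and Tead1 from 99.5 to 120.4 CPM. Yap1 also rose, from 40.1 to 66.1 CPM, as did Mrtfa, from 31.6 to 50.5 CPM, and Tead2, from 27.0 to 37.7 CPM. Runx1 fell from 147.2 ± 4.60 to 53.5 ± 4.69 CPM and Wwtr1, which encodes the YAP relative TAZ, from 226.7 to 143.4 CPM. The muscle TEAD factor Tead4 fell from 34.5 to 0.922 CPM and Twist2 from 14.5 to 8.05 CPM. For the 6 lists together, Ccn1, Smoc1, Ltbp2, Adamtsl2, Emilin1, Adamts10, Fbln7, Efemp1, Efemp2, Itga4, Itga5, Itga9, Itgav, Itgb6, Itgb8, Tgfb1, Tead2, Tead4, Yap1, Mrtfa and Twist2 were chosen after their values were seen.

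Markers of cell state moved with these genes, and their part in the changes above was not tested. All 10 markers of differentiating muscle fell, and their summed level went from 10917 to 12126 CPM in control libraries to 144.0 to 207.1 CPM in Drp1 libraries, so the Drp1 libraries carried little of the myotube programme that their label names. Of 6 smooth muscle and myofibroblast markers 5 were measured and 4 rose (sums of 2687 to 3226 and 8369 to 10126 CPM), namely Cnn1, from 4.09 to 237.2 CPM, Lmod1, from 7.58 to 163.8 CPM, Tagln, from 166.1 to 523.7 CPM, and Acta2, from 2687 to 7975 CPM. Of 7 fibroblast markers 6 were measured, 2 rose and 3 fell (sums of 1074 to 1351 and 506.5 to 630.0 CPM). Pdpn made up most of the control sum (mean 1213 CPM) and fell from 1103 to 221 CPM, so the sum mainly followed Pdpn. Dpt fell from 5.40 to 1.04 CPM and Fap from 5.51 to 0.0893 CPM, with 7 Drp1 counts of Fap in all. Dcn rose from 91.7 to 338.8 CPM and Lum from 0.352 to 0.901 CPM. In bulk RNA, fewer cells of a type and less RNA per cell cannot be told apart.

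Macrophages and bone cells are known makers of osteopontin. Of 5 macrophage markers 3 were measured, with sums of 1.78 to 2.75 CPM in control and 0.989 to 1.68 CPM in Drp1 libraries. Csf1r fell from 1.33 to 0.651 CPM and Itgam had no count in any Drp1 library. Of 6 osteoblast markers Runx2 and Bglap were measured (sums of 34.8 to 44.5 and 22.8 to 29.3 CPM); Runx2 fell and Bglap had 13 and 28 counts in all. The 1 endothelial marker measured, of 4, was at most at 0.567 CPM and was not tested. Of 4 adipocyte markers 2 were measured (sums of 0.580 to 1.57 and 2.27 to 5.03 CPM): Pparg rose from 1.06 to 2.17 CPM (log2 0.98, adjusted p = 0.0094, edgeR; 0.64 and 0.067 without both ends of the library axis), and Fabp4, which was not tested, had 6 control and 66 Drp1 counts. Of 7 cartilage and tendon markers 4 were measured, with sums of 265.0 to 463.3 and 428.7 to 481.4 CPM. Acta2, Cnn1, Lmod1, Tagln, Dcn, Lum, Pdpn, Dpt, Fap, Csf1r, Itgam, Runx2, Bglap, Pparg and Fabp4 were chosen after their values were seen.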

How the data were processed

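Messenger RNA was measured by QuantSeq in 11 libraries, grouped by the hairpin in their titles. Per the series text, reads were aligned in BlueBee; which program counted them, with which annotation and strand setting, is not given in the sources used here. GRCm38 (mm10) and DESeq2 1.22.2 appear in the submitters' processing notes. The deposited table holds raw whole-number counts per gene, made by the authors. A normalized table was not used. Without a stated strand setting, antisense genes cannot be told apart.

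Identifiers were matched to symbols (15080 of 15113), and 32 genes of the fixed lists were not analysed here. Testing used edgeR 4.0.16 (R 4.3.3): filterByExpr by group (13025 genes), TMM scaling, robust quasi-likelihood fit with group alone, and Benjamini-Hochberg adjustment over all genes at 0.05. Each SE is the log2 fold change over the root of F. The steps were tested on simulated data. Ratios and their exact permutation test added 0.5 to each count; 4 of 5 planned ratios could be formed. Within each group, every pair of libraries differed more than repeated reading of a single library would give (chi-square over degrees of freedom 5.03 to 57.2). That comparison cannot tell whether libraries shared a culture.

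The members, the lists (other matricellular, elastic fibre, receptor, processing, TGF-beta, regulator and 8 marker lists) and the tests were chosen with earlier results of these data known. The rule named Dnm1l, the 10 genes, per list of other genes the 6 with the highest mean CPM, measured paralogues, and the 3 genes most like each member; a few of these are not reported here. Alternatives were 3 other scalings, 2 other filters, DESeq2 version 1.42.0, limma-voom (limma version 3.58.1), a replicate block, thinned counts and left-out libraries; leaving out 4 libraries together was added after seeing the data.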

Additional observations from a re-analysis of the deposited data

Results flagged for a closer look

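In 30 groups of values tested for a library standing apart from its group (the 10 genes, the 4 ratios and the share of counts, in each group), 2 were found, where chance gives about 1 in 20. Fbn1 was at 372.1 CPM in control replicate 4, while the other 5 control libraries ranged from 179.7 to 236.0 CPM. Eln was at 5.56 CPM in control replicate 3, from 99 counts, with the other controls at 3.82 to 4.42 CPM.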

How the results depend on the processing

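All 219 alternative values of the 10 genes kept their direction and their side of the threshold, under other scalings, filters, tools and left-out libraries; Eln was not tested under the stricter filter. Of 68 other single genes followed through the alternatives, 56 did so under every alternative that could test them (13 for Itga9, which low-count filters often drop). The stricter low-count filter lowered the count of other matricellular genes that fell to 3 and of receptor genes that fell to 3, since it tests fewer genes. Leaving out single libraries, 2 to 4 TGF-beta genes were called higher. Differences that did not pass the test changed sign as follows. Loxl1 was at 0.0323 with library totals alone and 0.0172 with upper quartile scaling. Tgfb2 was at 0.0787 with library totals alone, 0.0628 with upper quartile scaling, 0.0106 with the stricter filter, 0.0025 with the replicate block and 0.0412 without both ends of the library axis (4 libraries), and from -0.0527 to 0.0162 without single libraries. Cd44 was at -0.0392 without control replicate 1 and Drp1 replicate 2, at -0.0989 without the 4 libraries, and from -0.0956 to 0.112 without single libraries. The cause was not tested. Ltbp1 was called with library totals alone (0.16). Deviations of same-numbered libraries were correlated at -0.21, -0.28, -0.40, 0.59 and -0.36 for numbers 1 to 5, so only number 4 deviated together. No control library had the Drp1 library of its own number as its best match. Libraries also spread along the shared axis, so these values cannot decide whether the numbers pair them. With the replicate number as a block, 3948 genes were higher and 3899 lower, Postn was at 3.10 and Fbn1 at -0.78, and 89 of 93 results kept direction and call. Depth limits Eln, Tgfbi, Adamtsl2 and Itga9, which had 1 to 3 Drp1 counts. It also limits Itgb6, with 5 Drp1 counts, and Itga4 and Fap, with 7 each.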

Other observations

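Among cartilage and tendon markers, of which 4 of 7 were measured, 2 rose and 2 fell. The cartilage factor Sox9 rose from 179.7 to 382.8 CPM and Tnmd, a gene of mature tendon cells, from 0.537 to 18.9 CPM, whereas the tendon factor Scx fell from 188.8 to 59.6 CPM. These 3 genes were chosen after their values were seen.

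The genes whose log2 levels followed 8 of the members most closely over the 11 libraries were sought among 8322 genes with a mean of at least 10 CPM (8323 for Eln, itself below that level). The difference between the groups sets most of each correlation, so they are given as a description. Postn was followed by Lmod1, Myl9 and Mylk (Pearson r = 0.999, 0.998 and 0.998), genes of smooth muscle contraction. Spp1 was followed by Sema7a, Pdgfa and Ptgfrn (0.997, 0.996 and 0.996) and Fn1 by 4930402H24Rik, Uggt1 and Fam222b (0.991, 0.991 and 0.985). Fbn1 was followed by Macf1, Brwd1 and Ssh1 (0.986, 0.977 and 0.976), the weakest likeness among these 8, and Fbln2 by Nfe2l2, Hsp90aa1 and Dusp3 (0.995 for each). Sparc was followed by Copz1, H2afj and Nxn (0.997, 0.997 and 0.996), Thbs2 by Fam222b, 2310039H08Rik and G6pdx (0.996, 0.994 and 0.992) and Eln by Gm14635, Vps35 and Map2 (0.998 for each).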
